A study of Mus musculus with 8 samples.

Results

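The p53 pathway was described here through 32 genes, namely Trp53, its regulators and its known target genes, out of 22180 genes with a probe set of their own on the arrays. The rule that picks them names the genes and uses no measured value, but the list was chosen with earlier results of these data known. For each gene the probe set that the platform annotation assigns to that symbol alone was used, taking the one with the highest mean where several exist. Of the 32 genes, 28 had such a probe set, each exactly 1, and Trp53, Ddb2, Gdf15 and Fdxr were not analysed here. All 28 measured genes lay above the filter on dim genes (a mean above 4.38 on the log2 scale), and they were tested together with 15526 genes in all.

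The arrays were hybridised with RNA from medulloblastomas, tumours of the cerebellum, freshly taken from mice on postnatal day 15. In 4 tumours the genotype was Math1-Cre/SmoM2/Bcl2l1 f/f, so that Cre removed Bcl2l1, which encodes the survival protein BCL-xL, and in 4 control tumours it was Math1-Cre/SmoM2. Both groups thus carried Math1-Cre and SmoM2, an active form of Smoothened that drives Sonic hedgehog signalling, and no mouse received an exogenous agent. The Math1 (Atoh1) promoter drives Cre in granule neuron progenitors, so vessels, microglia and other cells of a Bcl2l1-deleted tumour would keep the gene.

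The transcription factor p53 is held low in unstressed cells by MDM2, which marks it for degradation, and by the related inhibitor MDM4. DNA damage and other stresses release it, and it then raises genes that stop the cell cycle (Cdkn1a), repair DNA (Xpc, Polk), start cell death, and restrain p53 itself (Mdm2, Ccng1, Ppm1d). In granule neuron progenitors p53 is known to drive cell death after DNA damage through BAX, which BCL-xL holds back. Much of the control of p53 acts on the protein, so that target transcripts, more than Trp53 transcript, report its activity.

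The promoter sequences below are those of the genes on which the results turn, as far as the sequence table held them, with Cdkn1a and Mdm2 as the best known targets. Each is the stretch of 250 bases just before a transcription start, 5′ to 3′ on the gene's strand, from RefSeq on build GRCm38.p6. Gtse1 and Cdkn1a had 2 windows each, and the one at the most upstream start is shown. Capitals mark matches on either strand to the p53 consensus decamer, of which a p53 response element is built, to CCAAT, and to TTTGAA or TTTAAA, the core letters of the cell cycle homology region (CHR) through which cell cycle genes are repressed outside G2 and M phase. The windows are chr15:85859457-85859706 (plus strand) for Gtse1, chr8:22185820-22186069 (minus) for Ckap2, chr11:40755287-40755536 (minus) for Ccng1, chr17:29090729-29090978 (plus) for Cdkn1a and chr10:117710759-117711008 (minus) for Mdm2.
Gtse1: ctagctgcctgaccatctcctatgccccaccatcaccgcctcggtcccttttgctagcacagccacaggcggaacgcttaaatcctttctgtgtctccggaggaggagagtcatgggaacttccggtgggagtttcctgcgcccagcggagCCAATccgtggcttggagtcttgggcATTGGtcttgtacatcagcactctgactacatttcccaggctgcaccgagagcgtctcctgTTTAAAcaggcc
Ckap2: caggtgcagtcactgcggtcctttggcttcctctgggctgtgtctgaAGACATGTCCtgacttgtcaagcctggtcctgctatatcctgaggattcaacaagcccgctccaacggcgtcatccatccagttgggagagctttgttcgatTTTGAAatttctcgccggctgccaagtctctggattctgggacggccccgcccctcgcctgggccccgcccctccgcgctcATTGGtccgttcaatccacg
Ccng1: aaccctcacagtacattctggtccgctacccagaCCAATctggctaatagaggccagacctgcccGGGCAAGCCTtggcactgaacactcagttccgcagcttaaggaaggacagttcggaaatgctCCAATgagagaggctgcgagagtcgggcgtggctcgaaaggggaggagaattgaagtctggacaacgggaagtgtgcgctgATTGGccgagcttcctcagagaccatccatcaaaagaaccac
Cdkn1a: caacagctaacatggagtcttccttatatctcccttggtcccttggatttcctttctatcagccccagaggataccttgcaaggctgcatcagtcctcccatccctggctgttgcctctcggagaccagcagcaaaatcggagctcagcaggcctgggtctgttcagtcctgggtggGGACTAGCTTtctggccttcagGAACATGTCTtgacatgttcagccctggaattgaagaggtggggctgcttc
Mdm2: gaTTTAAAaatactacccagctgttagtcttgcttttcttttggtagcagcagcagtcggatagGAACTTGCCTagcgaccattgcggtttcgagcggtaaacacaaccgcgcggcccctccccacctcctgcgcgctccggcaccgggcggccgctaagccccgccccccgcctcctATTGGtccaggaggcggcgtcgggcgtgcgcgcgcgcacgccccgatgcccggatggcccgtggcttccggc
The Cdkn1a window held 2 p53 decamers, GGACTAGCTT and GAACATGTCT, and no match to the other letters. The Ckap2 window held the decamer AGACATGTCC beside TTTGAA and CCAAT, and the Gtse1 window held TTTAAA and 2 CCAAT matches but no p53 decamer. Ccng1 and Mdm2 had 1 decamer each, GGGCAAGCCT and GAACTTGCCT. The Ccng1 window also held CCAAT matches, and the Mdm2 window held TTTAAA and a CCAAT match. Of the 23 measured genes with a promoter window in the table, 9 held a p53 decamer in at least 1 of their windows (Aen, Ccng1, Cdkn1a, Ckap2, Ei24, Mdm2, Polk, Ppm1d and Sesn1), against 8.2% of all 27025 genes in the table. CCAAT stood in 12 of the 23 (37.49% of all genes), TTTAAA in 6 (13.68%) and TTTGAA in 2 (18.26%). A match is a description of these letters, not evidence of binding.

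The deleted gene and the arrays were checked before the pathway. Bcl2l1 had values of 5.46, 5.47, 5.69 and 5.32 in the Bcl2l1-deleted tumours, against 6.88, 6.57, 6.93 and 6.98 in the controls, a fall of 1.36 on the log2 scale (SE 0.16, adjusted p = 0.00509). The groups did not overlap (exact permutation test, two-sided, p = 0.0286, the smallest value these group sizes allow). The position of its probe set relative to the floxed exons was not analysed here. Control replicate 2 stood apart, with an interquartile range of 2.40 over the measured genes, against 3.59 to 3.66 on the Bcl2l1-deleted arrays and 3.29 to 3.51 on the other controls. Genes of smell and pheromone receptors, which in brain report mostly background, had a median of 3.60 on that array, 2.79 to 2.92 on the Bcl2l1-deleted arrays and 2.94 to 3.09 on the other controls. Xist stood at 10.1, 9.6, 4.9 and 4.7 on the Bcl2l1-deleted arrays and at 10.5, 9.9, 4.5 and 10.3 on the controls. Arrays with a low Xist level were thus not shared evenly between the groups. Granule progenitor markers, among them Atoh1, Gli1 and Ptch1, had mean levels of 9.998 to 10.09 in the Bcl2l1-deleted tumours and 9.59 to 10.15 in the controls, and none of the 10 passed the test.

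The question for the pathway was whether its transcripts differed when tumours lacked Bcl2l1. Of the 28 measured genes, 4 rose and none fell in the Bcl2l1-deleted tumours, and 24 did not pass (limma, adjusted over all genes tested, threshold 0.05). The genes that rose were Gtse1, Ckap2, Perp and Ccng1. The most used reporters of p53 activity, Cdkn1a and Mdm2, did not pass. The 4 genes are 14.3% of those measured, where 4.93% of all genes tested rose and 1.60% fell (6.52% in all). The median change of the 28 genes was 0.24 on the log2 scale, beside 0.17 for all genes tested, with a range of -0.14 to 0.90. Before adjustment, 8 of the 28 genes had a limma p under 0.05, as did 30.5% of all genes tested.

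**Figure D1:**
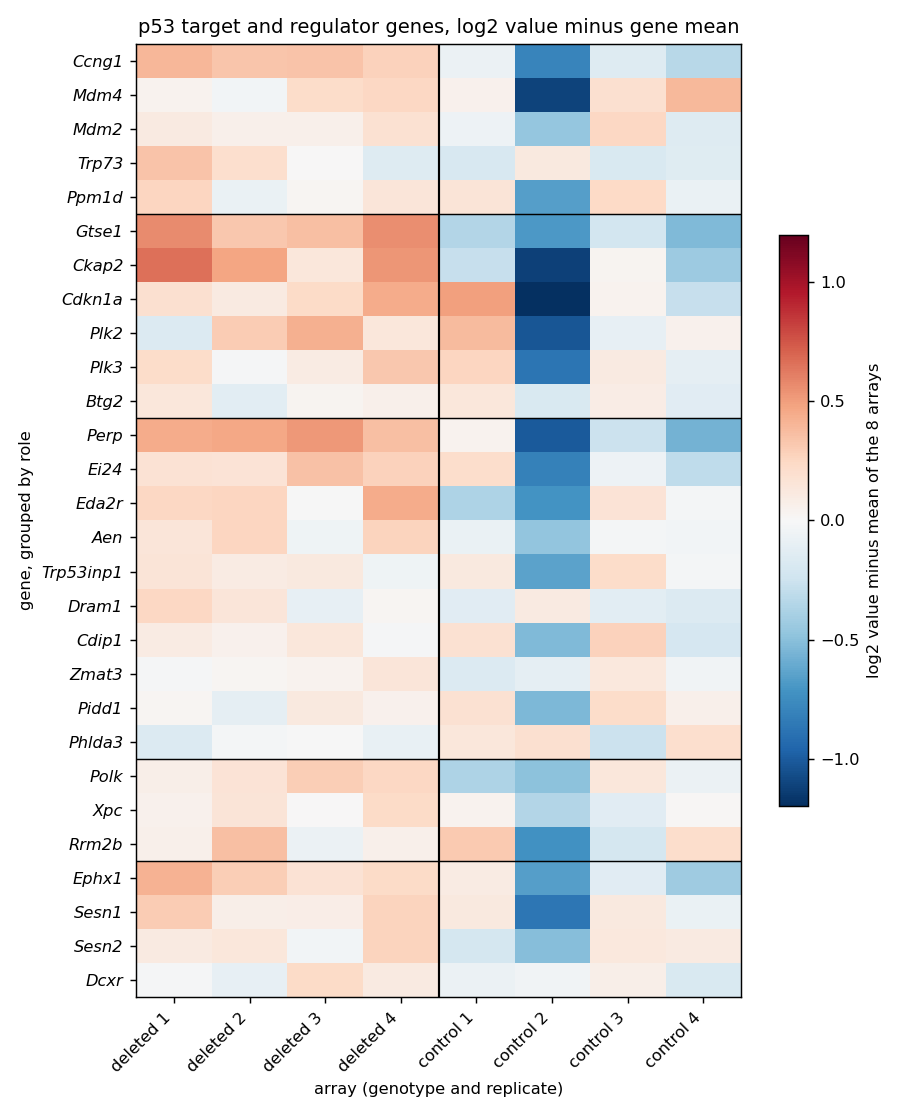
Log2 values of the 28 measured p53 genes on each array, as the difference from the gene's mean over the 8 arrays (colour scale), with genes in rows grouped by role and arrays in columns, Bcl2l1-deleted on the left and control on the right. Control replicate 2 is the lowest column for 23 of the 28 genes, and the Bcl2l1-deleted columns are the redder ones for Gtse1, Ckap2, Perp and Ccng1.

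For most of these genes the lowest value was on the same array. Control replicate 2 gave the lowest of the 8 values for 23 of the 28 genes (82.1%), as it did for 54.6% of all genes tested. The standard deviation had a median of 0.12 over the 28 genes in the Bcl2l1-deleted tumours and 0.34 in the controls, where it was 0.17 without control replicate 2. The mean was higher in the Bcl2l1-deleted tumours for 27 genes, against 67.4% of all genes tested. With the dim filter set at the 50th percentile, 24 of the 25 pathway genes kept were higher, with a median change of 0.241. Among all genes kept there, 78.1% were higher and the median change was 0.255, above that of the pathway. The split differed between scalings. With each array centred on the median of the genes tested, 13 of the 28 genes were higher and 15 lower, with a median change of -0.02. Gtse1 and Perp alone passed there, and 40.9% of all genes tested were higher (median change -0.086). Centring on all probe sets gave 28 higher and 0 lower (median change 0.41), where 79.6% of all genes were higher. Quantile normalization gave 24 higher and 4 lower (0.24), where 66% of all genes were higher. Without control replicate 2 the median change was 0.12 (0.09 for all genes tested), 20 genes were higher and 8 lower, and the same 4 genes passed, all 4 higher, where 8.95% of all genes tested rose and 4.46% fell.

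Gtse1 encodes a microtubule-binding protein made in the S and G2 phases that can carry p53 out of the nucleus, and it had the smallest p of the pathway. Its values were 8.86, 8.61, 8.65 and 8.85 in the Bcl2l1-deleted tumours, against 7.94, 7.60, 8.07 and 7.76 in the controls. Every Bcl2l1-deleted array lay above every control array. The mean was 8.74 ± 0.13 in the Bcl2l1-deleted tumours and 7.84 ± 0.20 in the controls (SD, n = 4 each), a 1.86-fold rise (log2 change 0.90, SE 0.15, limma adjusted p = 0.0158). Gtse1 was the sole pathway gene past the threshold with the receptor median as a covariate (0.76, adjusted p = 0.0280). Leaving out Bcl2l1-deleted replicate 1, 2 or 4, or control replicate 4, took its adjusted p to 0.0752, 0.0558, 0.0505 and 0.0539 in that order, with the change between 0.86 and 0.94.

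Ckap2, a spindle and microtubule protein of dividing cells, had values of 9.23, 9.04, 8.71 and 9.10 in the Bcl2l1-deleted tumours, against 8.30, 7.45, 8.61 and 8.14 in the controls. The groups did not overlap, but Bcl2l1-deleted replicate 3 lay only a little above control replicate 3. The change was 0.90 (SE 0.24, 1.86-fold, limma adjusted p = 0.0483), and 0.67 without control replicate 2 (adjusted p = 0.0280). It was 0.51 and did not pass with the receptor median as a covariate (adjusted p = 0.193), nor without any 1 of the 4 Bcl2l1-deleted arrays (adjusted p = 0.0657 to 0.148) or without control replicate 4 (0.107).

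Both Gtse1 and Ckap2 are made mainly in dividing cells, and other genes of G2 and M phase were measured beside them. Of 15 such genes 3 rose, 12 did not pass and none fell, where 4.93% of all genes tested rose and 1.60% fell. The groups of 10 did not overlap, all higher. Among all genes tested, 19.0% did not overlap and were higher. The mitotic kinase gene Aurkb had a change of 0.62 (SE 0.14, adjusted p = 0.0354), the anaphase activator Cdc20 one of 0.56 (SE 0.15, adjusted p = 0.0487) and the spindle checkpoint kinase gene Bub1b one of 0.62 (SE 0.16, adjusted p = 0.0492). The proliferation marker Mki67 changed by 0.05 (95% interval -0.37 to 0.47, adjusted p = 0.872) and the cyclin gene Ccna2 by 0.12 (-0.20 to 0.44, adjusted p = 0.577). These were the smallest changes on the list, and both genes were named after their values were seen. The mean was higher for all 15 genes, with a median change of 0.55 and a range of 0.05 to 0.77. The list's mean level was 9.61 to 9.82 in the Bcl2l1-deleted tumours and 8.94 to 9.46 in the controls. Without control replicate 2, 6 of its genes rose, where 8.95% of all genes tested did. None of the 15 passed in limma with arrays centred on the genes tested, nor without any 1 of the 4 Bcl2l1-deleted arrays, nor without control replicate 3 or 4. With all arrays 9 had an unadjusted limma p under 0.05, as did 30.5% of all genes tested. In bulk tissue a larger share of dividing cells and more transcript per cell cannot be told apart, and the part of the cell cycle genes in the values of Gtse1 and Ckap2 was not tested.

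Perp encodes a tetraspan membrane protein of desmosomes that takes part in p53-dependent cell death. Its values were 5.54, 5.56, 5.62 and 5.46 in the Bcl2l1-deleted tumours, against 5.15, 4.09, 4.84 and 4.54 in the controls. The Bcl2l1-deleted values lay close together and above all the controls. The change was 0.89 (SE 0.21, 1.86-fold, limma adjusted p = 0.0375). It was 0.70 without control replicate 2 (adjusted p = 0.0185), and 0.63 after centring on the genes tested (0.0342). With the receptor median as a covariate it was 0.50 and did not pass (adjusted p = 0.0930). The values of Perp lie near the dim filter, and control replicate 2 was below it. The call was lost without any 1 of the 4 Bcl2l1-deleted arrays (adjusted p = 0.0784 to 0.119) and without control replicate 3 or 4 (0.0563 and 0.0967).

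Ccng1 encodes cyclin G1, which brings a phosphatase to MDM2 and is among the most regular p53 targets in mouse tissues. Its values were 8.87, 8.80, 8.82 and 8.76 in the Bcl2l1-deleted tumours, against 8.41, 7.68, 8.32 and 8.14 in the controls. The Bcl2l1-deleted arrays spanned far less than the controls and lay above all of them. The change was 0.67 (SE 0.18, 1.59-fold, limma adjusted p = 0.0474) and 0.52 without control replicate 2 (adjusted p = 0.0191). With arrays centred on the genes tested it was 0.41 (adjusted p = 0.0557), and the receptor covariate gave 0.37 (adjusted p = 0.135), so that neither passed. The call was lost without any 1 of the 4 Bcl2l1-deleted arrays (adjusted p = 0.0944 to 0.145) and without control replicate 3 or 4 (0.0619 and 0.106).

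**Figure D2:**
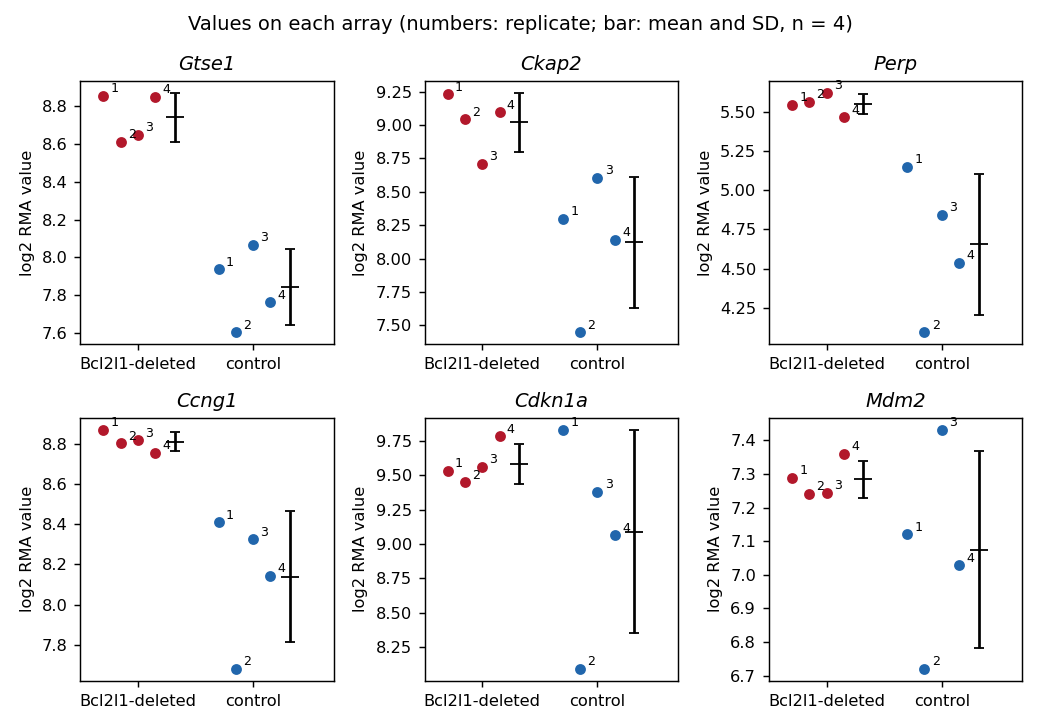
Log2 RMA values of 6 p53 pathway genes on each array, Bcl2l1-deleted on the left of each panel and control on the right, with replicate numbers beside the points and the mean and SD of 4 arrays as a bar. For Gtse1, Ckap2, Perp and Ccng1 the Bcl2l1-deleted arrays lie above all controls, while for Cdkn1a and Mdm2 a control array (9.83 and 7.43) exceeds the Bcl2l1-deleted ones.

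The other regulators of p53 did not pass. Mdm2 had values of 7.29, 7.24, 7.25 and 7.36 in the Bcl2l1-deleted tumours, against 7.12, 6.72, 7.43 and 7.03 in the controls. The highest of the 8 values was on a control array, and the groups overlapped. The change was 0.21 (95% interval -0.16 to 0.58, limma adjusted p = 0.402), 0.09 without control replicate 2 and -0.05 after centring on the genes tested. Mdm4 changed by 0.24 (-0.39 to 0.86, adjusted p = 0.580), but by -0.09 without control replicate 2, which stood at 6.30 among controls of 7.46 to 7.79. Ppm1d, the phosphatase WIP1 that switches off p53 and its kinases, changed by 0.18 (adjusted p = 0.563) and by -0.02 without that array. Trp73, the p53 relative p73, changed by 0.20 (adjusted p = 0.399). On Trp73 control replicate 2 was the highest control, at 5.66 among 5.35 to 5.39.

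Cdkn1a, the cell cycle inhibitor p21, had values of 9.53, 9.45, 9.56 and 9.78 in the Bcl2l1-deleted tumours, against 9.83, 8.09, 9.38 and 9.06 in the controls. Control replicate 1 was the highest of the 8 arrays and control replicate 2 the lowest, so all Bcl2l1-deleted values lay inside the range of the controls. The change was 0.49 (95% interval -0.18 to 1.17, limma adjusted p = 0.287). It was 0.16 without control replicate 2 (adjusted p = 0.575) and -0.16 with that receptor covariate. The other arrest genes stood closer to no change. Btg2, an antiproliferative factor, changed by 0.05 (-0.27 to 0.37, adjusted p = 0.831), and by -0.21 after centring on the genes tested. The polo-like kinase genes Plk2 and Plk3 changed by 0.35 and 0.31 (adjusted p = 0.393 and 0.371), and by 0.06 and 0.07 without control replicate 2. Btg2, Plk2 and Plk3 can also be raised as immediate early genes. Of 15 genes on a list of immediate early genes, Atf3 (0.92, adjusted p = 0.0140) and Ier3 (0.72, adjusted p = 0.0458) rose, where 4.93% of all genes tested did. None fell and 13 did not pass, among them Fos (-0.31, adjusted p = 0.400) and Egr1 (-0.05, adjusted p = 0.924), both named after their values were seen. The list's changes ran from -0.31 to 0.92 with a median of 0.33, and 10 genes had a higher mean (67.4% of all genes tested). Neither Atf3 nor Ier3 passed with centring on the genes tested (adjusted p = 0.0693 and 0.103) or without Bcl2l1-deleted replicate 1 (0.0654 and 0.116) or 2 (0.0627 and 0.102). Ier3 was also lost without Bcl2l1-deleted replicate 3 or 4 and control replicate 3 or 4, each left out alone (0.0779 to 0.110), and with the receptor covariate (0.150), and passed in 9 of 21 alternatives.

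**Figure D3:**
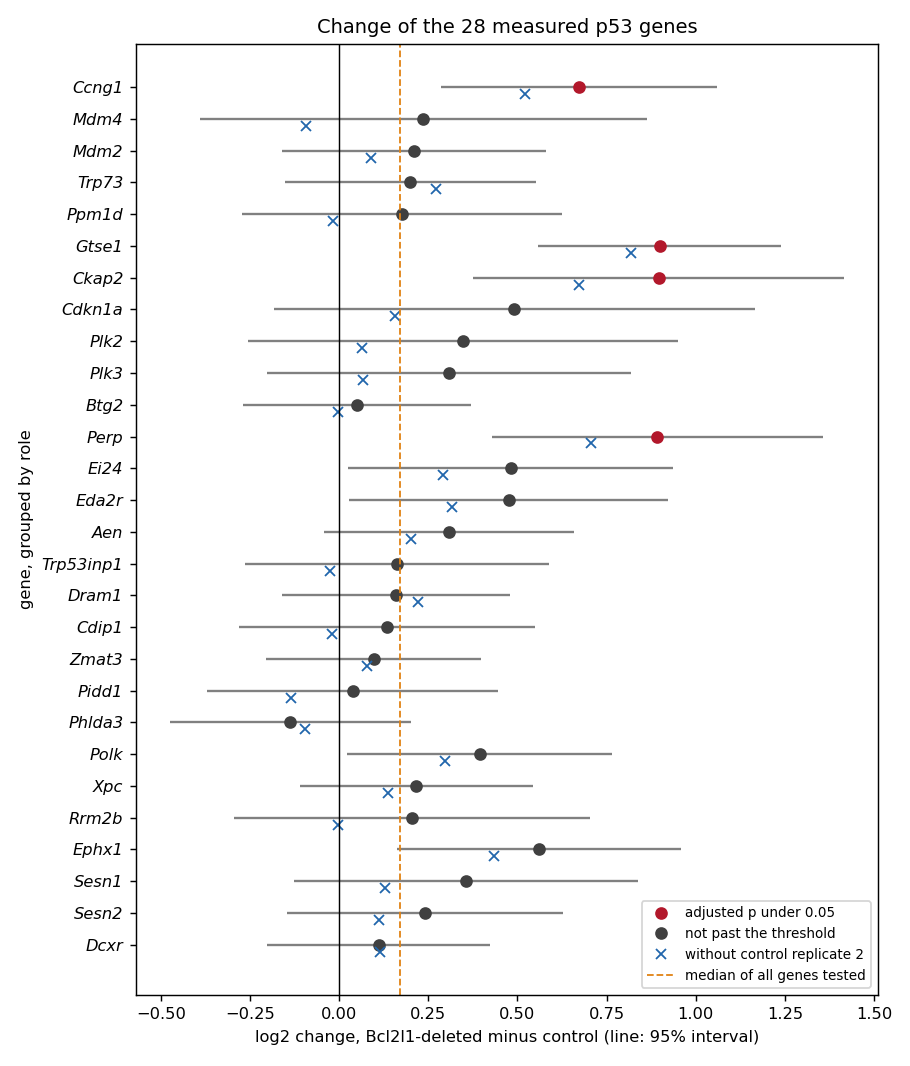
Fitted log2 change of the 28 measured p53 genes (horizontal axis, Bcl2l1-deleted minus control, lines for the 95% interval), grouped by role down the page, with crosses for the change without control replicate 2 and a dashed line for the median of all genes tested, at 0.17. Gtse1, Ckap2, Perp and Ccng1 are in red, and most other genes lie near the dashed line, with crosses closer to 0.

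Of 10 genes of cell death and survival signalling, Perp rose and the other 9 did not pass. Ei24, a membrane protein of the endoplasmic reticulum, changed by 0.48 (SE 0.21, limma adjusted p = 0.147), and the death domain receptor gene Eda2r by 0.48 (SE 0.20, adjusted p = 0.145). Without control replicate 2 they stood at 0.29 and 0.32. Aen, a nuclease of apoptosis, changed by 0.31 (adjusted p = 0.212), Trp53inp1 by 0.16 (0.579), the lysosomal protein gene Dram1 by 0.16 (0.460), Cdip1 by 0.13 (0.637), the RNA-binding protein gene Zmat3 by 0.10 (0.641) and Pidd1, which builds a caspase-2 platform, by 0.04 (0.904). Phlda3, which restrains AKT, was the sole gene with a lower mean. Its values were 6.68, 6.83, 6.84 and 6.76 in the Bcl2l1-deleted tumours, against 6.98, 7.04, 6.58 and 7.05 in the controls. Of the controls, 3 lay above all Bcl2l1-deleted arrays and control replicate 3 below them (change -0.14, 95% interval -0.48 to 0.20, adjusted p = 0.549). The change of Phlda3 was 0.04 when arrays were centred on all probe sets.

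The DNA repair and nucleotide genes did not pass. Polk, a polymerase that copies past damaged bases, changed by 0.39 (SE 0.17, limma adjusted p = 0.146), the damage sensor gene Xpc by 0.22 (0.327) and Rrm2b, a subunit of the ribonucleotide reductase, by 0.20 (0.545). Among the metabolic targets, Ephx1, an epoxide hydrolase, had values of 7.24, 7.12, 6.999 and 7.05 in the Bcl2l1-deleted tumours, against 6.92, 6.16, 6.69 and 6.40 in the controls. Its groups did not overlap, yet its change of 0.56 (SE 0.18, adjusted p = 0.0802) missed the threshold. It passed without control replicate 1 (0.69, adjusted p = 0.0339) and with array weights (0.47, adjusted p = 0.0235). The sestrin genes Sesn1 and Sesn2, which restrain mTORC1 signalling, changed by 0.36 and 0.24 (adjusted p = 0.281 and 0.356) and by 0.13 and 0.11 without control replicate 2. Dcxr, a carbonyl reductase, changed by 0.11 (adjusted p = 0.604). Sesn2 is also a target of the integrated stress response. Of 13 tested genes on a list of that response none passed in either direction, with a median change of 0.32, beside 0.17 for all genes tested. At an unadjusted limma p under 0.05 there were 4, a cut-off that 30.5% of all genes tested met. The list's smallest p values were those of Nupr1 (0.63, adjusted p = 0.0727) and Slc7a11 (1.26, adjusted p = 0.0844). Slc7a11 passed in 1 of 21 alternatives, with array weights (1.05, adjusted p = 0.0387). Atf3, counted above with the immediate early genes, was not on this list, so its rise is not part of this count.

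Ephx1 was the fifth gene whose groups did not overlap, beside the 4 that rose. These genes were 17.9% of the 28, near the 19.0% of all genes tested that were higher without overlap, and none of the 28 was lower without overlap (4.46% of all). Without control replicate 2, 6 genes were higher without overlap (20.2% of all genes tested), Dram1 being added. The 95% intervals of all 28 genes lay above a log2 change of -1, and the intervals of 5 genes, Gtse1, Ckap2, Perp, Ccng1 and Cdkn1a, reached 1. The median distance from the change to the end of its unadjusted 95% interval was 0.40. Eda2r, Ei24, Polk and Ephx1 had intervals above 0 and did not pass after adjustment.

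A further list held further p53 targets, of which 21 were tested. Of these 4 rose, where 4.93% of all genes tested did, 17 did not pass and none fell past the threshold, and 8 were higher without overlap (19.0% of all genes tested). The median change was 0.46. Thbs1, an inhibitor of vessel growth, had values of 5.66, 6.05, 5.85 and 5.76 in the Bcl2l1-deleted tumours, against 5.31, 4.64, 5.13 and 5.24 in the controls (change 0.75, SE 0.18, limma adjusted p = 0.0385). The inflammatory protease gene Casp1 changed by 0.66 (SE 0.16, adjusted p = 0.0430), but all 4 controls lay below the level of the dim filter (3.94 to 4.33), so that it was tested only through its values in the Bcl2l1-deleted tumours (4.49 to 4.96) and its call carries no weight in the count. The sulfatase gene Sulf2 changed by 1.00 (SE 0.25, adjusted p = 0.0453) and the death receptor gene Tnfrsf10b by 0.79 (SE 0.20, adjusted p = 0.0458). The pro-apoptotic BH3 genes Bbc3 (PUMA) and Pmaip1 (NOXA), both direct targets, changed by -0.06 (95% interval -0.53 to 0.41, adjusted p = 0.863) and 0.04 (-0.63 to 0.72, adjusted p = 0.934). Of the list none passed with the receptor median as a covariate, without any 1 of the 4 Bcl2l1-deleted arrays (Casp1 was then under the dim filter and not tested), or without control replicate 3 or 4. In the fit to all arrays 9 had an unadjusted limma p under 0.05, as did 30.5% of all genes tested.

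**Figure D4:**
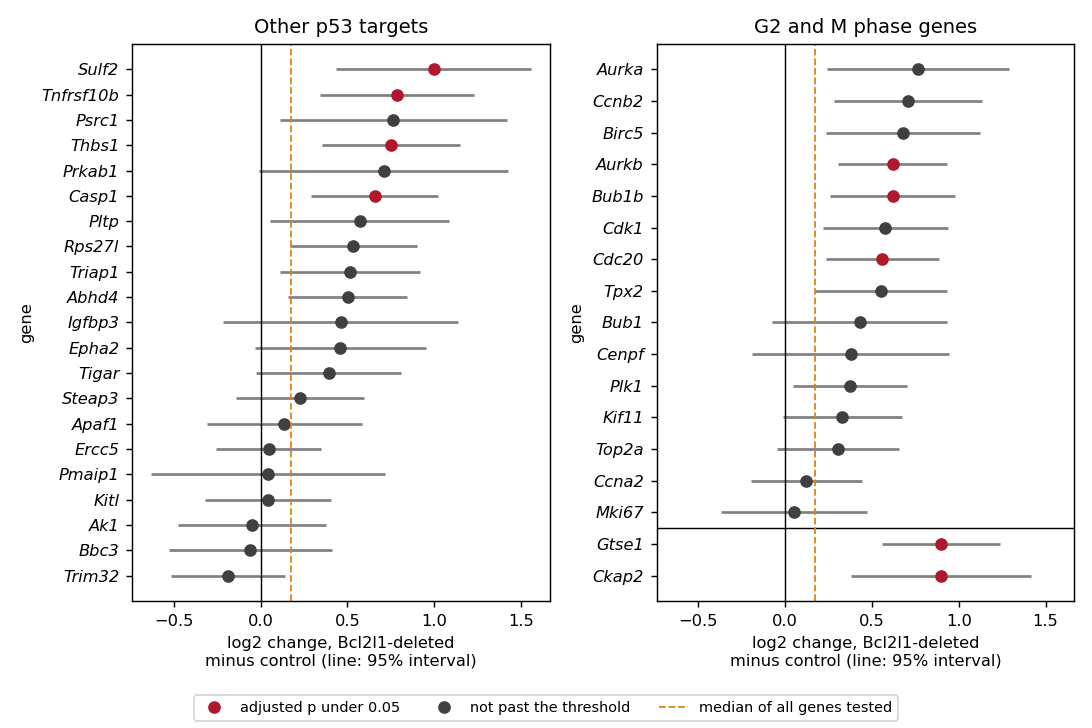
Fitted log2 change (horizontal axis, Bcl2l1-deleted minus control, lines for the 95% interval) of 21 further p53 targets on the left and of 15 G2 and M phase genes on the right, with Gtse1 and Ckap2 below them. Red points passed the adjusted threshold, 4 on the left and 3 of the 15 on the right, and the dashed line is the median of all genes tested, at 0.17.

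Several of these targets are also made by cells other than tumour cells. Of 11 microglia markers 5 rose, with a mean level of 8.08 to 8.34 in the Bcl2l1-deleted tumours and 6.81 to 7.80 in the controls, where 4.93% of all genes tested rose. Leaving out 1 array gave counts of 0 (without Bcl2l1-deleted replicate 1 or 2) to 9 (without control replicate 1), and the receptor covariate gave 2. Of 7 endothelial markers 4 rose (7.09 to 7.21 against 6.24 to 6.58 in the controls), of 7 astrocyte markers 3 rose (9.23 to 9.68 against 8.04 to 9.29 in the controls) and of 6 fibroblast markers 3 rose, 1 of them with a control mean under the dim filter (7.76 to 8.17 against 6.52 to 7.19 in the controls). Markers of differentiating granule neurons went the other way, with 8 of 10 lower (6.03 to 7.58 against 7.74 to 8.79 in the controls), where 1.60% of all genes tested fell. So did 2 of 7 oligodendrocyte markers (5.64 to 7.26 against 7.03 to 8.44 in the controls). The endothelial, astrocyte, fibroblast and oligodendrocyte counts were not followed over the alternatives. The granule neuron count was 1 without Bcl2l1-deleted replicate 1 or 2 or control replicate 4, 2 without Bcl2l1-deleted replicate 4, and 4 with Xist as a covariate. On that list Cntn1 (0.27, limma adjusted p = 0.33, higher without overlap) and Neurod1 (-0.36, adjusted p = 0.39) did not pass. Some Bcl2l1-deleted values of Gabra6, Fat2 and Slc17a7 lay under the level of the dim filter. The part of these cells in the values of Perp, Ccng1, Thbs1, Casp1, Sulf2 and Tnfrsf10b was not tested.

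Upstream of p53, 1 of 25 tested regulators rose, 24 did not pass and none fell, a share near the 4.93% of all genes tested that rose, so the count says nothing particular to these regulators. Chek2, the checkpoint kinase that phosphorylates p53 after double-strand breaks, had values of 7.22, 7.10, 7.18 and 6.92 in the Bcl2l1-deleted tumours, against 6.77, 5.54, 6.20 and 6.20 in the controls. The groups did not overlap, and the change was 0.93 (SE 0.23, 1.90-fold, limma adjusted p = 0.0418). With the receptor median as a covariate the change was 0.49 (adjusted p = 0.132). Chek2 passed in 10 of 21 alternatives, and not without any 1 of the 4 Bcl2l1-deleted arrays (adjusted p = 0.0808 to 0.132) or without control replicate 3 or 4 (0.0684 and 0.0979). The damage kinase genes Atm and Atr changed by 0.24 and 0.51 (adjusted p = 0.482 and 0.242), Chek1 by 0.64 (0.158), and Cdkn2a, whose ARF product blocks MDM2, by 0.07 (0.824). The median change of the 25 regulators was 0.09, beside 0.17 for all genes tested.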

How the data were processed

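Total RNA of 8 tumours, from separate animals per the design text, was labelled for Affymetrix arrays (whole-transcript kit), as the labels' protocols state. The deposited values are log2 expression values that the authors made with RMA in the Partek software, per the labels. The software's version and options and the genome build are not given in the sources. RMA compresses differences near background. Precision is limited by the number of arrays, 4 per group. Groups come from the titles and match the genotype field. A status field reads deleted for every sample and was not used.

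Of 41345 probe sets, 23521 had 1 symbol, 1814 several and 16010 none. Entrez identifiers matched a RefSeq table (GRCm38.p6) for 23328 of those with 1 symbol. A filter at the 30th percentile of mean level removed 6654 genes. Differences (Bcl2l1-deleted minus control) were tested in limma 3.58.1 (R 4.3.3), two-sided, with Benjamini-Hochberg adjustment over 15526 genes, and every adjusted p is from this tool. The script was tested on simulated data. It recovered 95% of 100 changes of log2 size 2 and 50% of 100 changes of size 1, with 11 false calls. A list's mean level is the mean log2 value of its tested genes on an array.

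The members and lists were chosen with earlier results of these data known. Named genes were all members and, of each further list on p53, G2 and M phase, immediate early genes and the integrated stress response, up to 4 genes past the threshold with the smallest p, or 2 where none passed. Mki67, Ccna2, Fos, Egr1, Bbc3, Pmaip1, Atm, Atr, Chek1 and Cdkn2a were added after their values were seen. Bax, Gadd45a, Ccnb1 and Trp53i13 had no probe set of their own and were not analysed here. Alternatives changed the filter, scaling, covariates, variance model and arrays.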

Additional observations from a re-analysis of the deposited data

Results flagged for a closer look

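Of 82 groups of 4 arrays examined (1 gene in 1 genotype each), 5 had an array far from the other 3 by Dixon's criterion, all 5 among the controls. Chance gives about 1 in 20 such groups. In 4 of the 5 the array was control replicate 2. Aen stood at 5.22 there, below the other controls (5.62 to 5.67). Dram1 stood at 5.08 there (4.81 to 4.84 on the other controls), Trp73 at 5.66 (5.35 to 5.39) and Atf3 at 6.24 (5.92 to 5.97), all above the other controls. Phlda3 stood at 6.58 on control replicate 3 (6.98 to 7.05 on the other controls).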

How the results depend on the processing

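Across 21 alternatives Bcl2l1 stayed lower and past the threshold (highest limma adjusted p 0.0371), and no p53 gene passed as lower. The count of all genes past the threshold (1013) was 548 with no filter, 200 with Xist level as a covariate, 3494 with array weights, 43 in a plain linear model, 508 with the replicate number as a block, 20 to 2082 when 1 array was left out, and 1775 without control replicate 2 with arrays centred on the genes tested, which was chosen after seeing the data. The count of p53 genes that rose (4) was 1 with no filter, 2 with arrays centred on the genes tested, 1 with the receptor median as a covariate, 1 with Xist as a covariate, 0 in the plain linear model (limma, 8 at an unadjusted p under 0.05 in the moderated fit), 1 with the replicate block and 0 to 5 when 1 array was left out. All genes split into 765 higher and 248 lower, into 1337 and 171 with arrays centred on all probe sets, 390 and 699 centred on the genes tested, and 273 and 404 with the receptor covariate. Same-numbered arrays deviated together with correlations of 0.039, 0.023, -0.135 and 0.053, so the numbers were not taken to pair them. Gtse1 passed in 16 of 21 alternatives, Ckap2 and Ccng1 in 9 of 21 and Perp in 9 of 20. With Xist as a covariate Gtse1 passed (limma adjusted p = 0.0446), and Ckap2, Perp and Ccng1 did not (0.105, 0.0848 and 0.104). Of the other genes, 19 changed sign in at least 1 alternative, and the cause was not tested. With quantile normalization the log2 changes that turned were Btg2 -0.11, Zmat3 -0.046, Pidd1 -0.042. With arrays centred on all probe sets the log2 changes that turned were Phlda3 0.035. With arrays centred on the genes tested the log2 changes that turned were Mdm2 -0.05, Mdm4 -0.022, Ppm1d -0.082, Trp73 -0.059, Btg2 -0.21, Trp53inp1 -0.097, Zmat3 -0.16, Pidd1 -0.22, Dram1 -0.099, Cdip1 -0.12, Rrm2b -0.054, Xpc -0.041, Sesn2 -0.017, Dcxr -0.15. With the receptor median as a covariate the log2 changes that turned were Mdm2 -0.009, Mdm4 -0.34, Ppm1d -0.18, Cdkn1a -0.16, Btg2 -0.059, Plk2 -0.23, Plk3 -0.14, Trp53inp1 -0.20, Pidd1 -0.29, Cdip1 -0.18, Rrm2b -0.17, Sesn1 -0.057. With Xist as a covariate the log2 changes that turned were Pidd1 -0.013. With array weights the log2 changes that turned were Mdm4 -0.10, Ppm1d -0.037, Btg2 -0.022, Trp53inp1 -0.021, Pidd1 -0.15, Cdip1 -0.038. Without control replicate 2 the log2 changes that turned were Mdm4 -0.094, Ppm1d -0.016, Btg2 -0.003, Trp53inp1 -0.025, Pidd1 -0.14, Cdip1 -0.019, Rrm2b -0.004. When 1 array was left out, the highest changes of these genes were Mdm4 0.404, Ppm1d 0.284, Btg2 0.103, Trp53inp1 0.263, Pidd1 0.117, Cdip1 0.25 and Rrm2b 0.342.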
